A study of Rattus norvegicus with 6 samples.

Results

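The genes described here are heat shock proteins of the rat, mainly cytosolic and mitochondrial, and their J-domain co-chaperones. They were chosen by name among the protein-coding rows of the count table: the Hspa, Hspb, Hspd, Hspe and Hsph genes, the cytosolic Hsp90 genes and the Dnaja, Dnajb and Dnajc genes, together with Bag3 and Hsf1. The endoplasmic reticulum (ER) genes Hspa5, Dnajb9, Dnajb11 and Dnajc3 were left out. Other genes of ER proteins that matched by name, such as Dnajb12, Dnajb14 and Hspa13, stayed in. A gene also had to reach 10 counts in at least 3 of the 6 libraries, which left 54 members of 64 genes with a matching name, in a table of 20104 genes. Of the 54 members, 51 passed this minimum in all 6 libraries, Hspa1a and Hspa4l passed in 5 and Hspa2 in 3. Just outside it lay Hspa1b, Hspa12a and Hspb2, which reached 10 counts in 2 libraries each.

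The libraries are liver RNA of rats taken on day 14 after a liver trauma, and every sample had this wound. It was covered with AKOC, a dressing from a study of kaolin scales anchored on cotton, in 3 samples, and with Quik-clot, the commercial control dressing, in the other 3. The labels give no strain, age or genotype, do not expand AKOC, and do not say whether the 3 samples of a dressing are separate animals. Every p-value therefore rests on sample-to-sample spread that could be technical in origin. No uninjured liver is among them.

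Heat shock proteins keep other proteins folded. HSP70 binds exposed hydrophobic stretches in a cycle driven by ATP, J-domain proteins deliver clients and trigger the ATP step, and nucleotide exchange factors such as HSP110 and BAG3 release the client. HSP90 finishes the folding of signalling proteins, small HSPs hold unfolded chains, and the HSP60 and HSP10 chaperonin folds proteins imported into mitochondria. The transcription factor HSF1 switches on the inducible members of the family when unfolded proteins accumulate, and in rodent liver several of these genes also follow the daily rhythm of body temperature.

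HSF1 binds the heat shock element, inverted repeats of the unit GAA. Promoter windows of 250 bases before to 50 after the gene start were found in RefSeq (assembly GRCr8) for 43 of the 54 members and were searched on both strands. Its letters were searched as head-to-head pairs GAANNTTC, tail-to-tail pairs TTCNNGAA and a 3-unit element, which is either pair continued on its 3′ side by one more inverted unit at the same spacing. The 3-unit element occurred in 5 of these 43 windows (11.6%), those of Hspa8, Hsph1, Dnaja1, Hspd1 and Hspe1, against 0.798% of all 33469 windows of that length. At least one pair, either free or inside a 3-unit element, occurred in 16 of 43 (37.2%), against 15.9% of all windows. A match is a description of these letters, not evidence of binding. The windows below show the element in 5 members with an unadjusted p under 0.05 between the dressings (Hspa8, Hsph1, Bag3, Dnajb1 and Hspa4l) and in Hspe1, and were picked because they hold a match. Of the other members at that p, Hspb8 also held a pair, Hspa1a and Dnajc28 held no match, and Dnajb4 and Dnajc2 were not among the windows. Elements outside a window were not searched, and whether each RefSeq start is the one used in liver was not tested. A window without a match, such as that of Hspa1a, therefore does not show that the gene lacks the element. The Hspe1 window is the start of a gene pair, since Hspd1 runs the other way and shares 211 of the 300 bases. Capitals mark the pairs and 3-unit elements, 5′ to 3′ along the gene. Coordinates are in GRCr8, which is not the build of the counts: Hspa8 chr8:50080264-50080563 (+), Hsph1 chr12:10427118-10427417 (+), Dnajb1 chr19:41431092-41431391 (-), Bag3 chr1:192533210-192533509 (+), Hspe1 chr9:64084077-64084376 (+) and Hspa4l chr2:125668096-125668395 (+).
Hspa8: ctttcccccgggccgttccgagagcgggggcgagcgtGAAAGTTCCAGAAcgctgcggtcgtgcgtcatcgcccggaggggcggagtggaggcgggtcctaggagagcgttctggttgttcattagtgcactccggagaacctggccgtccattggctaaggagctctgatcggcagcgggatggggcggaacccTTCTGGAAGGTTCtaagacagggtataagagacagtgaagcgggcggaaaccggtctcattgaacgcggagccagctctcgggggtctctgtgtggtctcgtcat
Hsph1: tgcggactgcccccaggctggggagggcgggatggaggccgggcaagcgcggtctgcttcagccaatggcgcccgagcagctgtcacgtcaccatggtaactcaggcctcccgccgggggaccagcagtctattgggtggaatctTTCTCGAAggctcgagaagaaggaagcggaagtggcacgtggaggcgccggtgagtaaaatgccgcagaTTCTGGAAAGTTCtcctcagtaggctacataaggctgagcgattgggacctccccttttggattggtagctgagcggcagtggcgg
Dnajb1: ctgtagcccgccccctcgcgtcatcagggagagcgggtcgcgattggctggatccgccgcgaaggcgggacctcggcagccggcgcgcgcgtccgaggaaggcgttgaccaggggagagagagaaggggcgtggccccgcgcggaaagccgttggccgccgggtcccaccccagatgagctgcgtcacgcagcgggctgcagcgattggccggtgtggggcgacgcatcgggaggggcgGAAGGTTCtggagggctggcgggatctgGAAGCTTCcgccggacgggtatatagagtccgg
Bag3: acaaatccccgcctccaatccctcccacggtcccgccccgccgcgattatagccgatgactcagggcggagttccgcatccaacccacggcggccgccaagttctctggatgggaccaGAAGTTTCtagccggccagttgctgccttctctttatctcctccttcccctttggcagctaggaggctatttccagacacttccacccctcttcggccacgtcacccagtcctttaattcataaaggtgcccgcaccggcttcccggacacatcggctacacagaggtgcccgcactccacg
Hspe1: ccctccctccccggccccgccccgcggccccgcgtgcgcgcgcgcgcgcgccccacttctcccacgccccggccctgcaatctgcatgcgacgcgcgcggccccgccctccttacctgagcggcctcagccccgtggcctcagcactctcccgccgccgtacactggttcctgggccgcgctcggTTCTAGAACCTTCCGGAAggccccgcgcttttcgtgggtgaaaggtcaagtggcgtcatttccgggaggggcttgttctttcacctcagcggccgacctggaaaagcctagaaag
Hspa4l: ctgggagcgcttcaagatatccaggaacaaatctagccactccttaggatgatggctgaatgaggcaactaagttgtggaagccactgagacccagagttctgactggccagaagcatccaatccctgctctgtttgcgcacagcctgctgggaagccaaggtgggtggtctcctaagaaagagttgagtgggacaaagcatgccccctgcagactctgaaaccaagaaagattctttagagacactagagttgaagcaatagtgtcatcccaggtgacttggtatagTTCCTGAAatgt

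The Hspa8 window holds the 3-unit element at -213 to -201 and again at -55 to -43 from the gene start, and that of Hsph1 at -36 to -24. In Hspe1 a pair of overlapping elements spans -65 to -48, and seen from Hspd1 the same letters lie at -242 to -225. Dnajb1 has head-to-head pairs at -11 to -4 and at 18 to 25, Bag3 has one at -132 to -125, and Hspa4l has only a tail-to-tail pair at 39 to 46. Heat-inducible HSF1 targets were taken from a list with 12 members, namely Hspa1a, Hspa8, Hsph1, Hsp90aa1, Hsp90ab1, Hspb1, Hspb8, Dnaja1, Dnajb1, Bag3, Hspd1 and Hspe1. In this list Hspa8 and Hsp90ab1 are better known as constitutive genes. Of the 11 listed members with a window, 9 held a pair and 5 the 3-unit element. Of the other 32 members, 7 held a pair and 0 the 3-unit element.

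**Figure D1:**
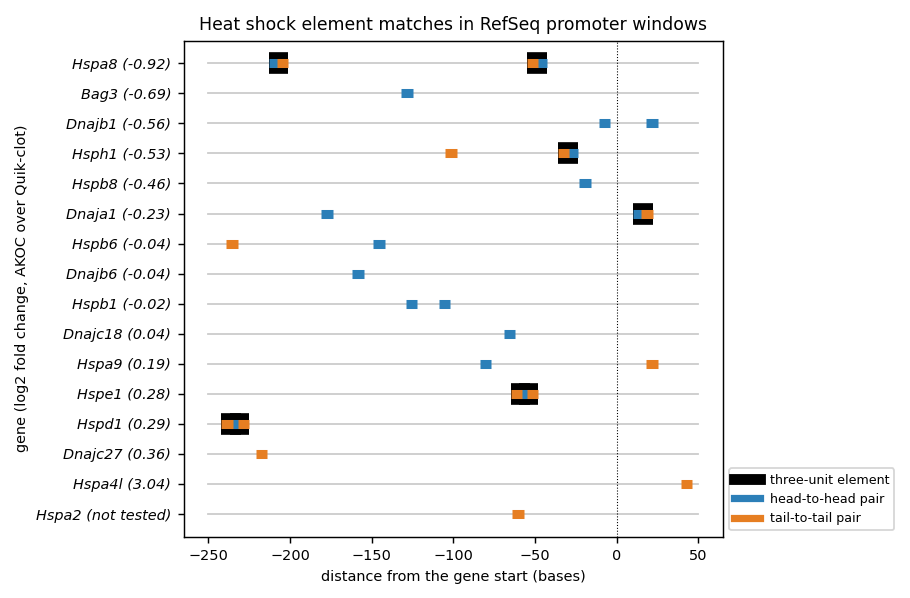
Heat shock element matches in the promoter windows of the 16 members that have one, by distance from the gene start in bases; black bars are 3-unit elements, blue bars head-to-head pairs and orange bars tail-to-tail pairs. The 15 tested genes are ordered by log2 fold change, AKOC over Quik-clot, from -0.92 for Hspa8 to 3.04 for Hspa4l, with the untested Hspa2 last, and members with the 3-unit element stand on both sides of 0.

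Library totals ran from 40402312 to 41455378 counts. Levels are given in CPM, counts scaled for library size with TMM factors. The libraries carried liver RNA by their markers, with albumin (Alb) at 62634 to 122898 CPM, and all 6 hepatocyte markers were present in each library. Dressings were compared with edgeR's quasi-likelihood test, with p-values adjusted by Benjamini-Hochberg over all 13872 genes tested and a call at an adjusted p under 0.05. Hspa2 was below the filter of that test, so 53 members were tested.

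Compared with Quik-clot, the AKOC livers had lower levels of 4 cytosolic folding genes, the HSP70 Hspa8, the HSP110 Hsph1, the J protein Dnajb1 and the exchange factor Bag3, by 1.44 to 1.90 times, none of which passed the adjusted threshold in edgeR. The J proteins Dnajb4 and Dnajc2, outside the heat-inducible list, were also lower without overlap, by 1.47 and 1.30 times. By library totals Hspa8, Bag3, Dnajb4 and Dnajc2 still did not overlap, while Hsph1 and Dnajb1 did. One HSP110 relative, Hspa4l, was 8.22 times higher, and the mitochondrial chaperones leaned to the higher side by 1.14 to 1.22 times (Hspa9, Hspe1 and Hspd1). No member passed the adjusted threshold in edgeR (0 of 53; background 0% of genes higher and 0% lower), and limma-voom with sample weights also called 0, while DESeq2 called 2, Hspa4l higher and Hspa8 lower (its background is 1.34% of genes higher and 0.679% lower). At an unadjusted p under 0.05 edgeR gave 8 members lower and 2 higher under AKOC, 15.1% and 3.77% of those tested, beside 5.57% and 6.48% of all genes. In 8 members every AKOC library was below every Quik-clot library and in 3 it was above (15.1% and 5.66%, beside 8.84% and 9.53% of all genes). Scaled by library totals alone, 5 members were lower and 2 higher without overlap, where the background is 8.66% and 4.95%. Negative log2 fold changes were found in 33 of 53 members (62.3%, beside 51.9% of all genes). The median log2 fold change over the members was -0.05, and -0.01 over all genes tested.

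**Figure D2:**
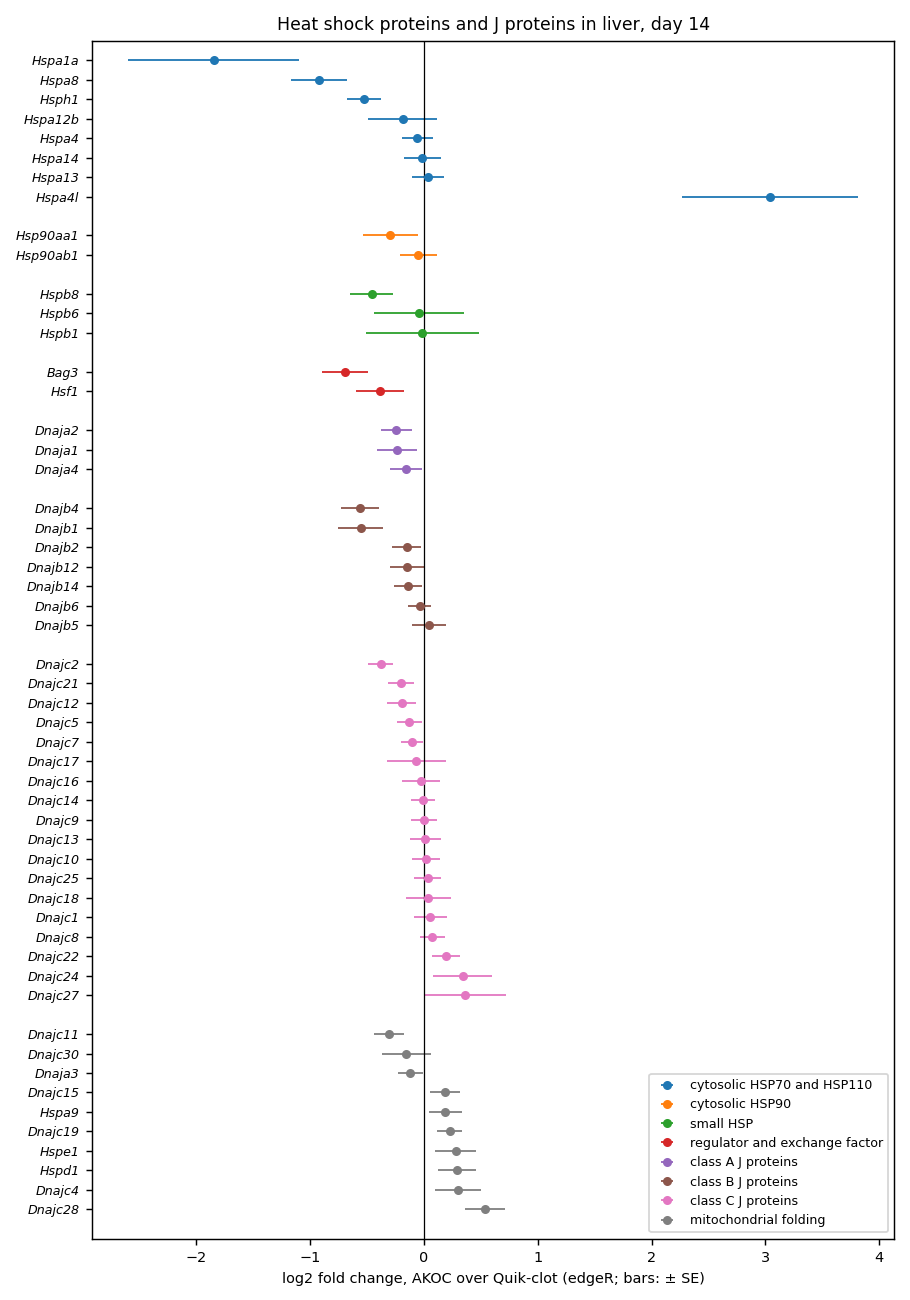
Log2 fold change, AKOC over Quik-clot, for the 53 tested members, by role; points are edgeR estimates and bars ± 1 SE. Hspa4l stands alone on the right at 3.04, Hspa1a, Hspa8 and Bag3 lie farthest to the left at -1.84, -0.92 and -0.69, and most class C J proteins lie near 0.

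Hspa8 encodes HSC70, the HSP70 that cells always carry, and per transcript length it had the highest mean level of all members (280 FPKM over the 6 libraries). It stood at 968, 542 and 763 CPM under Quik-clot and at 472, 352 and 375 CPM under AKOC. Each AKOC library lay below each Quik-clot library. The log2 fold change was -0.92 ± 0.25 (SE; edgeR adjusted p = 0.319; DESeq2 adjusted p = 0.0147), 1.90 times lower under AKOC. Without any single library it stayed between -1.12 and -0.71.

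HSPH1, an HSP110, is the exchange factor that loads HSP70 with fresh ATP. Hsph1 measured 83.7, 70.8 and 63.8 CPM under Quik-clot and 57.3, 44.9 and 49.4 CPM under AKOC, again without overlap, with a log2 fold change of -0.53 ± 0.15 (edgeR adjusted p = 0.325). With library totals in place of TMM scaling its groups overlapped.

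Hspa1a, the strongly heat-inducible HSP70, was nearly silent. Its counts were 132, 19 and 42 under Quik-clot and 31, 9 and 11 under AKOC, or 2.87, 0.435 and 1.13 CPM against 0.696, 0.240 and 0.287 CPM. The groups overlapped, and Quik-clot replicate 1 was far above the rest. The log2 fold change of -1.84 ± 0.75 (edgeR adjusted p = 0.407) became -0.92 (edgeR adjusted p = 0.665) without that library. Hspa1b, a near-identical copy below the count minimum, had 135, 12 and 8 counts under Quik-clot and 5, 9 and 4 under AKOC, and reads of both genes may have been split between them. Their summed counts were 267, 31 and 50 against 36, 18 and 15.

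Hspa4l, which encodes an HSP110 relative abundant in testis, was higher under AKOC. It had 1.48, 0.138 and 0.973 CPM under Quik-clot, the second of these from 6 counts, and 3.05, 7.13 and 11.2 CPM under AKOC. All AKOC libraries were above all Quik-clot libraries, with AKOC replicate 1 far below AKOC replicate 3. Its log2 fold change of 3.04 ± 0.77 (edgeR adjusted p = 0.303; DESeq2 adjusted p = 0.00124) was the largest of the members in either direction, and lay between 2.53 and 3.71 without any single library.

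The close relative Hspa4 did not differ beyond the spread of its libraries, at 87.5 ± 10.7 CPM under Quik-clot and 84.1 ± 7.66 CPM under AKOC (mean ± SD, n = 3 each). The other HSP70 genes had log2 fold changes of 0.04 for Hspa13, a microsomal HSP70, -0.01 for Hspa14, which sits on the ribosome, and -0.19 for the vascular Hspa12b, all with overlap. Hspa2 was at 0.0674 to 0.297 CPM and was not tested.

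The cytosolic HSP90 genes overlapped between the dressings. The inducible Hsp90aa1 had 317, 191 and 188 CPM under Quik-clot and 219, 163 and 185 CPM under AKOC, so that Quik-clot replicate 1 alone was high. Its log2 fold change of -0.29 ± 0.24 was -0.0008 without that library. The constitutive Hsp90ab1, the next highest member per length after Hspa8 at 270 FPKM, had 637 ± 82.6 and 616 ± 14.0 CPM (n = 3 each).

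Small HSPs bind unfolded chains without ATP. Hspb8, the partner of BAG3 in delivering damaged proteins to autophagy, had 63.4, 72.7 and 87.4 CPM under Quik-clot and 66.9, 51.6 and 44.4 CPM under AKOC, which overlapped through AKOC replicate 1 (log2 fold change -0.46 ± 0.19; edgeR adjusted p = 0.410). Hspb1, or HSP27, had 18.5, 6.26 and 7.89 CPM and 16.3, 10.4 and 5.63 CPM. It was high in the first replicate of both dressings and overlapped between the dressings (-0.02 ± 0.50). Hspb6, a muscle-enriched small HSP, was at 0.9997 to 2.89 CPM with overlap.

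Bag3 had 30.6, 23.4 and 18.4 CPM under Quik-clot and 13.7, 13.7 and 17.5 CPM under AKOC, without overlap. The log2 fold change was -0.69 ± 0.20 (edgeR adjusted p = 0.331; DESeq2 adjusted p = 0.106). Hsf1 itself had 6.70, 5.02 and 6.46 CPM against 5.05, 5.26 and 3.60 CPM, with overlap (-0.39 ± 0.21; edgeR adjusted p = 0.490). Without AKOC replicate 3 the value was -0.23. The messenger level of HSF1 is no measure of its activity, which is set at the protein.

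**Figure D3:**
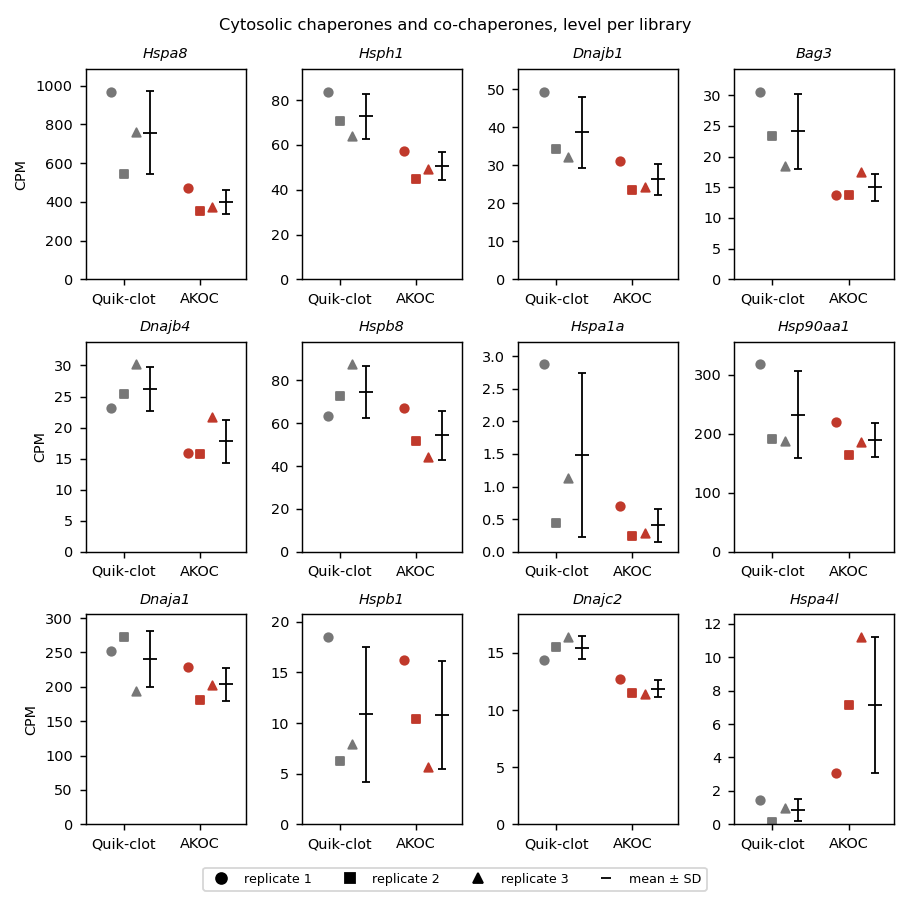
CPM in each library for 12 cytosolic members; grey symbols are Quik-clot, red symbols AKOC, shapes mark the replicate, and the black bar is the mean ± SD of 3 libraries. Hspa8, Hsph1, Dnajb1, Bag3, Dnajb4 and Dnajc2 are lower in every AKOC library than in any Quik-clot library, Hspa4l is higher in every one, and the other 5 genes overlap.

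J proteins are sorted by domains into classes A, B and C. In class A, the main HSC70 partner Dnaja1 had 240 ± 40.8 CPM under Quik-clot and 204 ± 24.2 CPM under AKOC (n = 3 each), and Dnaja1, Dnaja2 and Dnaja4 all had negative log2 fold changes (-0.23, -0.24 and -0.16) with overlapping groups.

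In class B, 6 of 7 members were negative and 2 had an unadjusted p under 0.05. Dnajb1, the stress-induced HSP40, had 49.4, 34.3 and 32.3 CPM under Quik-clot and 31.1, 23.4 and 24.4 CPM under AKOC. These did not overlap, although the lowest Quik-clot library was only just above the highest AKOC library (-0.56 ± 0.20; edgeR adjusted p = 0.372), and they did overlap with library totals. Without Quik-clot replicate 1 the log2 fold change was -0.34. Dnajb4, a close homologue of Dnajb1, had 23.2, 25.4 and 30.2 CPM against 15.98, 15.7 and 21.7 CPM. It also did not overlap (-0.56 ± 0.17; edgeR adjusted p = 0.336), and here Quik-clot replicate 1 was the lowest of its group. The anti-aggregation proteins Dnajb2 and Dnajb6, the ER-membrane proteins Dnajb12 and Dnajb14 and Dnajb5 had log2 fold changes between -0.15 and 0.04.

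Class C, J proteins with a J domain and otherwise little in common, was evenly split, with 10 of 18 members positive, 8 negative and a median of 0.01. Dnajc2, which works on nascent chains at the ribosome, had the only unadjusted p under 0.05 in the class, at 14.4, 15.5 and 16.4 CPM under Quik-clot and 12.7, 11.5 and 11.4 CPM under AKOC. The groups were apart (-0.38 ± 0.11; edgeR adjusted p = 0.332). Dnajc21, needed for ribosome maturation, also did not overlap, with a smaller difference (-0.20 ± 0.11; edgeR adjusted p = 0.496), though it overlapped with library totals. Dnajc12, the co-chaperone of the hepatic enzyme phenylalanine hydroxylase, had 20.04, 22.2 and 22.1 CPM against 21.7, 16.7 and 17.8 CPM (-0.19 ± 0.13). Dnajc22 was the highest class C gene per length at 30.2 FPKM and had 0.19 ± 0.12. Dnajc24, which acts in diphthamide synthesis, and Dnajc27 had the largest positive values of the class, 0.34 ± 0.26 and 0.36 ± 0.36, at under 4 CPM and with overlap. The remaining 12 (Dnajc1, Dnajc5, Dnajc7, Dnajc8, Dnajc9, Dnajc10, Dnajc13, Dnajc14, Dnajc16, Dnajc17, Dnajc18 and Dnajc25) lay between -0.13 and 0.08, all overlapping with TMM scaling; Dnajc5, the synaptic-vesicle J protein, was lower without overlap by library totals. The histone chaperone Dnajc9 was as even as any, at 9.42 ± 0.0398 and 9.45 ± 0.394 CPM (n = 3 each).

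The mitochondrial folding genes leaned to the higher side, a contrast with the cytosolic genes that was not tested. Of 10 members 7 were positive and 3 negative, and the median log2 fold change was 0.21. Hspd1, or HSP60, had 324, 304 and 270 CPM under Quik-clot and 306, 406 and 386 CPM under AKOC, with AKOC replicate 1 inside the Quik-clot range (0.29 ± 0.17; edgeR adjusted p = 0.505). Its co-chaperonin Hspe1, or HSP10, had 91.4, 107 and 72.1 CPM against 94.2, 113 and 122 CPM (0.28 ± 0.18; edgeR adjusted p = 0.552). The mitochondrial HSP70 Hspa9, the motor that pulls proteins into the matrix, had 377, 350 and 337 CPM against 357, 437 and 420 CPM (0.19 ± 0.15; edgeR adjusted p = 0.626). With TMM scaling, in all 3 genes AKOC replicates 2 and 3 were above every Quik-clot library and AKOC replicate 1 was not. In FPKM, which uses library totals, this held for Hspd1 only. Hspa9 had 149 FPKM in Quik-clot replicate 1 against 139 and 141 FPKM in AKOC replicates 2 and 3. Hspe1 had 169 FPKM in Quik-clot replicate 2 against 149 FPKM in AKOC replicate 2. With library totals the median of the 10 mitochondrial members was 0.13.

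The import-motor J proteins Dnajc19 and Dnajc15 had 0.23 ± 0.11 and 0.18 ± 0.13. Dnajc19 stood at 23.3, 26.9 and 24.9 CPM against 27.7, 28.1 and 32.2 CPM, without overlap, though with library totals it overlapped. Dnajc28 had 4.53, 4.95 and 3.97 CPM under Quik-clot and 5.64, 7.45 and 6.47 CPM under AKOC. It was the only mitochondrial member with an unadjusted edgeR p under 0.05 (0.54 ± 0.18, edgeR adjusted p = 0.350) and was apart under both scalings. With library totals, or on log2 FPKM, 0 mitochondrial members were higher at that p. Without AKOC replicate 2 the unadjusted edgeR p of Dnajc28 was 0.071. Dnajc4 had 0.30 ± 0.20 with overlap. On the lower side were Dnajc11, a protein of the inner-membrane folding sites (24.6, 21.6 and 25.3 against 21.6, 19.6 and 16.6 CPM; -0.31 ± 0.13, edgeR adjusted p = 0.414), Dnajc30 (-0.15 ± 0.21) and Dnaja3 (-0.12 ± 0.11).

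Partners of this system that are not members were read from a list of 7 genes. At an unadjusted p under 0.05, 4 were higher (6.48% of all genes) and 0 lower (5.57% of all genes), and 0 passed the adjustment. With library totals, or on log2 FPKM, 2 were higher at that p. Clpx, the unfoldase of the matrix protease, had 101, 136 and 125 CPM under Quik-clot and 215, 338 and 318 CPM under AKOC (1.27 ± 0.21; edgeR adjusted p = 0.258). Trap1, the mitochondrial HSP90, had 80.5, 84.2 and 75.1 against 117, 120 and 111 CPM (0.54 ± 0.11; edgeR adjusted p = 0.283). Timm44, which ties Hspa9 to the import channel, and the protease Lonp1 (named after its values were seen) had 0.40 ± 0.11 and 0.42 ± 0.12. In these 4 genes every AKOC library, replicate 1 included, was above every Quik-clot library, as in 9.53% of all genes. The HSPA9 exchange factors Grpel1 and Grpel2 and the protease subunit Clpp overlapped (0.16, -0.06 and -0.10).

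**Figure D4:**
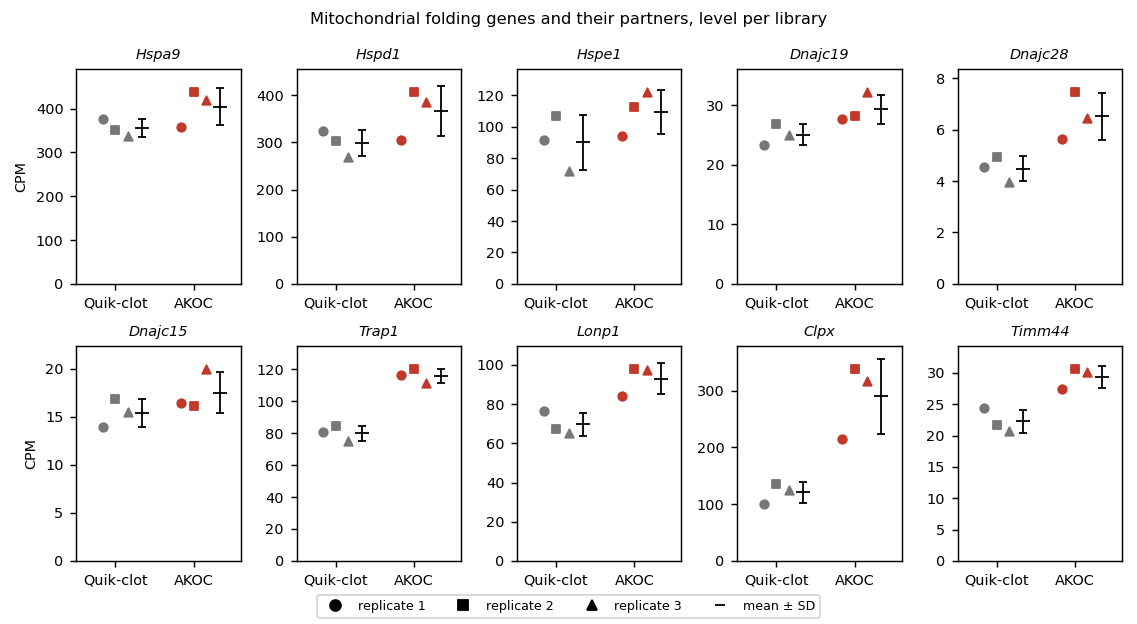
CPM in each library for 6 mitochondrial members (Hspa9, Hspd1, Hspe1, Dnajc19, Dnajc28 and Dnajc15) and 4 partners (Trap1, Lonp1, Clpx and Timm44), with symbols as in the plot of cytosolic members. The 4 partners do not overlap between dressings, nor do Dnajc19 and Dnajc28. The other members drawn do. All genes drawn have positive log2 fold changes. Not drawn are the negative members Dnajc11, Dnajc30 and Dnaja3, the positive member Dnajc4, and the overlapping partners Grpel1, Grpel2 and Clpp.

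Of the 12 heat-inducible HSF1 targets, 10 were negative, the median log2 fold change was -0.37, and 6 had an unadjusted p under 0.05. Setting apart the mitochondrial Hspd1 and Hspe1, the only positive genes of the list, was not planned. By that split 10 of the 12 act outside mitochondria, and their shared sign follows from it. All 10 of these had negative log2 fold changes, with a median of -0.49, 6 had an unadjusted p under 0.05 (Hspa8, Hsph1, Bag3, Dnajb1, Hspa1a and Hspb8; 5.57% of all genes were lower at that p) and 4 did not overlap (8.84% of all genes). By library totals only 2 of them, Hspa8 and Bag3, did not overlap (8.66% of all genes). The other 2, Hspd1 and Hspe1, were positive. The 41 tested members outside the list had a median of -0.02, with 2 higher and 2 lower at that p. Library by library, the median of the 10 genes, as log2 CPM against the mean of the 6 libraries, was 0.64, 0.064 and 0.0066 under Quik-clot but 0.032, -0.38 and -0.33 under AKOC. The groups thus overlapped at the level of the list, with AKOC replicate 1 between Quik-clot replicates 2 and 3. Quik-clot replicate 1 had the highest level of 8 of the 10 genes and AKOC replicate 2 the lowest of 6. Without Quik-clot replicate 1 the median was -0.38, 8 of 10 were negative and 4 had an unadjusted p under 0.05. Without AKOC replicate 2 or AKOC replicate 3, 3 did in each case.

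**Figure D5:**
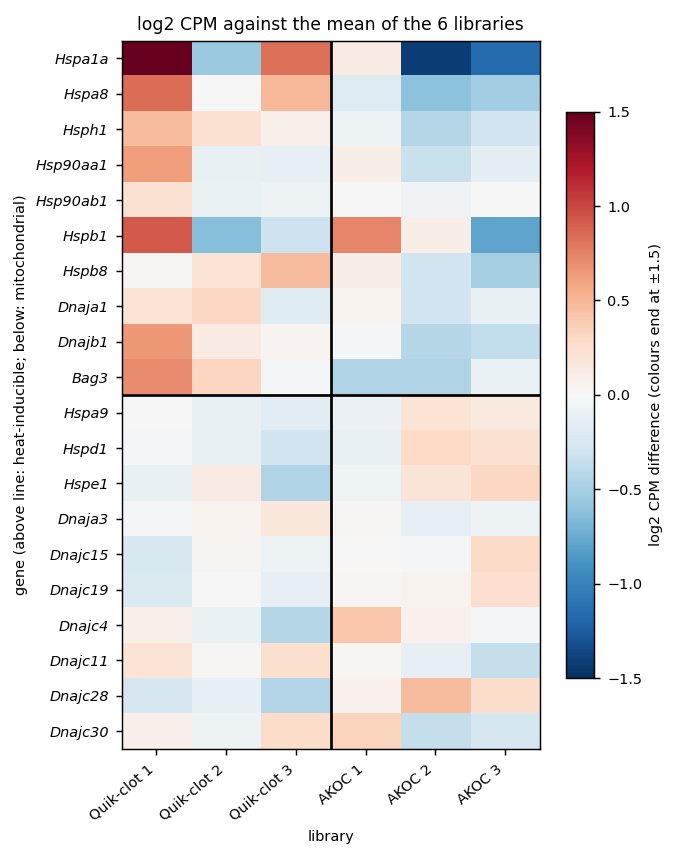
Log2 CPM against the mean of the 6 libraries for the 10 heat-inducible members outside mitochondria (above the line) and the 10 mitochondrial folding members (below), with colour from blue (lower) to red (higher), ending at ±1.5. Quik-clot replicate 1 is the highest in 8 of the upper 10 genes, and AKOC replicates 2 and 3 are red in Hspa9, Hspd1 and Hspe1.

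Summed over the 54 members, the folding machinery took 4240, 3511 and 3636 CPM under Quik-clot and 3429, 3295 and 3388 CPM under AKOC. The heat-inducible genes outside mitochondria summed to 2519, 1797 and 1950 against 1733, 1440 and 1526 CPM. The constitutive Hsp90ab1, a member of that list, made up 732, 584 and 594 against 628, 601 and 620 CPM of these sums. Hspa8, also a constitutive gene of that list, made up 968, 542 and 763 against 472, 352 and 375 CPM. Hspa9, Hspd1 and Hspe1 together gave 793, 762 and 679 against 757, 956 and 927 CPM. The ratio of Hspa8 to Hspd1 in CPM was 2.99, 1.78 and 2.83 under Quik-clot but 1.54, 0.866 and 0.973 under AKOC. Hspa8 had the smallest p of the lower members, and Hspd1 was the most raised of the mitochondrial genes summed above. The ratio therefore restates those differences and is no separate result.

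Co-factors of HSP70 and HSP90 that are not members did not lean one way. Of 22 measured, 12 were positive and 10 negative, 1 was higher and 2 lower at an unadjusted p under 0.05, and 0 passed the adjustment. Fkbp5, a steroid-receptor co-chaperone induced by glucocorticoids, had -1.18 ± 0.40, with 55.7 CPM in Quik-clot replicate 3 against 11.7 to 25.0 CPM in the others. The exchange factor Bag1 had 0.33 ± 0.11 and the HSP90 activator Ahsa2 -0.33 ± 0.14. Of the 8 subunits of the cytosolic chaperonin TRiC 7 were negative, none with an unadjusted p under 0.05, the smallest p-values being those of Tcp1 (-0.28 ± 0.13), Cct2 (-0.16 ± 0.10) and Cct4 (-0.11 ± 0.11). In 3 of the 8 (37.5%, beside 8.84% of all genes) every AKOC library was below every Quik-clot library. By library totals these 3 overlapped and Cct7 was lower without overlap. ER chaperones, with the 4 genes left out of the members among them, had 10 negative of 16 and a median of -0.06. Herpud1, an ER-stress-induced gene of protein degradation, was the only one with an unadjusted p under 0.05, at -0.67 ± 0.12, while Hspa5, or BiP, had -0.20 ± 0.16.

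Several other readings moved with the dressing beside these genes, and their part in the results was not tested. All 11 clock genes listed had an unadjusted p under 0.05, 3 higher and 8 lower under AKOC: Bmal1 stood at 7.88, 6.33 and 9.67 against 20.6, 36.7 and 35.8 CPM and Dbp at 21.9, 28.3 and 20.2 against 8.33, 3.42 and 3.55 CPM. AKOC replicate 1 was nearest to the Quik-clot libraries in both clock genes. The labels do not give the hour of collection. Of the temperature-responsive RNA-binding genes, Rbm3 had 26.4, 23.2 and 57.7 against 17.4, 14.9 and 14.0 CPM and Cirbp 9.14, 9.86 and 13.2 against 11.7, 11.2 and 12.4 CPM.

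Immediate early genes were negative in 6 of 7 tested and acute phase genes in 8 of 8, with 0 at an unadjusted p under 0.05 in either list. Their list medians were highest in Quik-clot replicate 3, at 1.125 and 0.96. The immediate early median was -1.04 in AKOC replicate 3, and the acute phase median was 0.54 in AKOC replicate 2. Among markers of other cells, all 6 for macrophages were negative, with summed levels of 640 to 997 CPM under Quik-clot and 513 to 774 CPM under AKOC. All 5 for endothelium were also negative (345 to 404 against 302 to 338 CPM), as were all 5 for T and NK cells (8.99 to 26.4 against 6.6 to 8.57 CPM). Neutrophil sums ran from 7.92 to 116 against 11.9 to 46.6 CPM, those of B and plasma cells from 78.8 to 99.0 against 63.4 to 112 CPM, and erythroid sums, highest in AKOC replicate 1, from 31.3 to 539 against 415 to 764 CPM. Stellate cell and fibroblast markers summed to 89.7 to 215 against 187 to 240 CPM, cholangiocyte markers to 10.8 to 20.2 against 14.4 to 18.9 CPM and muscle markers to 17.9 to 23.2 against 14.0 to 24.3 CPM, with the skeletal actin gene Acta1 at 0 counts in 4 libraries. Hba-a1 made up most of the erythroid sums (736 of 764 CPM in AKOC replicate 1), and 1 of the 3 erythroid markers, Slc4a1, was negative (-0.15). Col3a1 (0.71) was the largest part of the stellate sums, and 2 of the 6 stellate markers were negative, Col1a1 (-1.04) and Dcn (-0.99). In bulk tissue, fewer cells of a type and less RNA per cell cannot be told apart.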

How the data were processed

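The authors deposited raw gene counts (whole numbers) and FPKM values, which equal those counts scaled by length and library total within a relative error of 6.32e-07. The submitters' processing notes name fastp, HISAT2, HTSeq and the build mRatBN7.2. Versions, annotation and strand setting were not given in the sources used here. Hspa1a and Hspa1b are near-identical and may have shared reads.

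Genes were filtered with filterByExpr (minimum count 10, minimum total 15), scaled by TMM (factors 0.902 to 1.12) and tested two-sided with edgeR 4.0.16 in R 4.3.3, with the dressing as the only term. SE is the log2 fold change divided by the square root of F. As alternatives, DESeq2 1.42.0 was run, then limma-voom (sample weights) and limma-trend on log2 FPKM (limma 3.58.1), followed by other scalings and filters, a replicate block and leaving out each library. Non-overlap with library totals was added after seeing the data. The scripts were tested on simulated data. No libraries of a dressing agreed within sampling noise. Members and lists were chosen with earlier results of these data known. Named members were the 18 members of a fixed panel of well-known genes and up to 8 members per direction of smallest p with a mean of at least 1 CPM. Of each other chaperone list up to 3 genes of smallest p were named, and Lonp1, Grpel1, Grpel2, Clpp, Hspa5 and Cct7 were named outside that rule. Clock and cell-type genes were given as values beside the results. Other members are given by role. Reported sequences are from RefSeq, assembly GRCr8.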

Additional observations from a re-analysis of the deposited data

How the results depend on the processing

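Over all genes tested, the number called was 0 in edgeR, 280 with DESeq2, 1 with the replicate block, and 0 to 18 when a library was left out (18 without Quik-clot replicate 2, 10 without AKOC replicate 1 and 2 without AKOC replicate 2). Members called numbered 0 under these settings except DESeq2, where Hspa4l and Hspa8 were called (2 members). Members at an unadjusted p under 0.05 were 10, and 6 to 13 when a library was left out, the fewest without AKOC replicate 2. The median log2 fold change of the members was -0.05, -0.13 with library totals only, -0.12 on log2(FPKM + 0.1), and -0.10 to -0.037 when a library was left out. Of 25 named members, 22 kept their sign under every alternative. The exceptions lay near 0: leaving out a library moved Hsp90ab1 from -0.11 to 0.064 (positive without Quik-clot replicate 1), Hspa4 from -0.13 to 0.046 (positive without replicate 2 of Quik-clot or, at 0.0018, of AKOC) and Hspb1 from -0.44 to 0.61 (positive without Quik-clot replicate 1, and at 0.0039 and 0.29 without AKOC replicate 2 and AKOC replicate 3), and Hspb1 was 0.019 with the replicate block; the cause was not tested. With library totals 5 members were lower without overlap in place of 8, and 2 higher in place of 3. No pairing by replicate number was seen. Same-numbered libraries correlated at -0.07, -0.08 and -0.20 in their deviations from the group means, and differently numbered ones at -0.10 to 0.17. With 3 libraries per dressing these values cannot tell whether the numbers mark a shared animal or day. The replicate block left 2 members higher and 7 lower at an unadjusted edgeR p under 0.05. On log2(FPKM + 1), which shrinks low genes, Hspa1a was -0.30 and Hspa4l 1.06. Precision is limited by 3 libraries per dressing and, for Hspa1a (9 to 132 counts) and Hspa4l (6 to 430 counts), by depth.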
